A study of Homo sapiens with 4 samples.

Results

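HEK293 is a line of human embryonic kidney cells transformed with adenovirus DNA, and the RNA described here came from 2 derivatives of it that had received no poly I:C. One derivative carried an LGP2 transgene (LGP2 cells) and the other an LGP2-4KR transgene (4KR cells), where the labels do not define 4KR or name the promoter that drives either transgene. Both lines were grown in MEM with 10% FCS in a 24-well plate, and total RNA was taken at 0 h. Members were chosen by title: the 2 unstimulated arrays of the 4 arrays in the series, 1 for each line. The other 2 arrays came from the same lines 12 h after they were transfected with short poly I:C at 100 ng/ml, and are used here only for contrast. With 1 array for each line no difference has a replicate check, no test was made, and neither line is the untransfected parent. The labels do not say whether a line is 1 clone or a pool.

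Cells recognise foreign RNA in the cytoplasm through the RIG-I-like receptors: RIG-I and MDA5 bind double-stranded or 5'-triphosphate RNA and signal through the mitochondrial adaptor MAVS to the kinases TBK1 and IKK epsilon, the transcription factors IRF3 and IRF7, and NF-kB. LGP2, the third member, lacks the signalling domains and modulates the other two. Toll-like receptors sense nucleic acids and microbial products in endosomes or at the cell surface, and cGAS and STING sense DNA in the cytoplasm. HEK293 cells are widely used as hosts for such pathways because they take up DNA readily and are regarded as poor in several Toll-like receptors and in cGAS and STING.

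Each array was a single-colour hybridisation of Cy5-labelled RNA, read as 1 intensity for each probe. The deposited intensity is the spot signal above the blank spots, scaled to an array median of 25 over the probes that were given a value. Of the 21707 probes named by 1 gene, 18410 had a value on the LGP2 array and 18511 on the 4KR array, and 18218 (83.9%) had one on both. A further 3004 (13.8%) had no value on either, 192 had one on the LGP2 array only and 293 on the 4KR array only. On both arrays the probes left without a value were exactly those whose spot lay below a single cutoff. That cutoff lay close to the mean plus 2 SD of the middle 90% of the blank spots: 47.3 scanner units against a dimmest given spot of 47.4 on the LGP2 array, and 45.7 against 45.7 on the 4KR array. "No value" below therefore means a signal under that cutoff, not absence of the RNA.

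Named probes were ranked on each array from percentile 0 (dimmest) to 100 (brightest), with probes without a value tied at the bottom, and a gene's percentile is the mean over its probes and over both arrays. A gene with no value on either array thus has a percentile of 7.48. Brightness depends on the probe as well as on the amount of RNA, so the ranking describes signal and not copies per cell. Part of this dependence on the probe can be read from the 1984 genes with 2 probes that both had values on both arrays. Their probes differed by a median of 2.17-fold on the LGP2 array and 2.19-fold on the 4KR array, and by over 10-fold for 13.1% of them. The same probe differed between the arrays by a median of 1.07-fold. Genes with an empty probe are left out of these figures. Of 2734 genes with 2 probes, 538 had a value from only 1 of them on the LGP2 array and 176 from neither. For a gene with 1 probe such a disagreement cannot be seen. VIM, the intermediate filament protein vimentin, had probes at 4183, 282 and 11.4 on the LGP2 array and at 4367, 304 and 10.6 on the 4KR array. KRT18, a keratin of simple epithelia, had probes at 961, 20.6 and 9.12 on the LGP2 array.

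**Figure D1:**
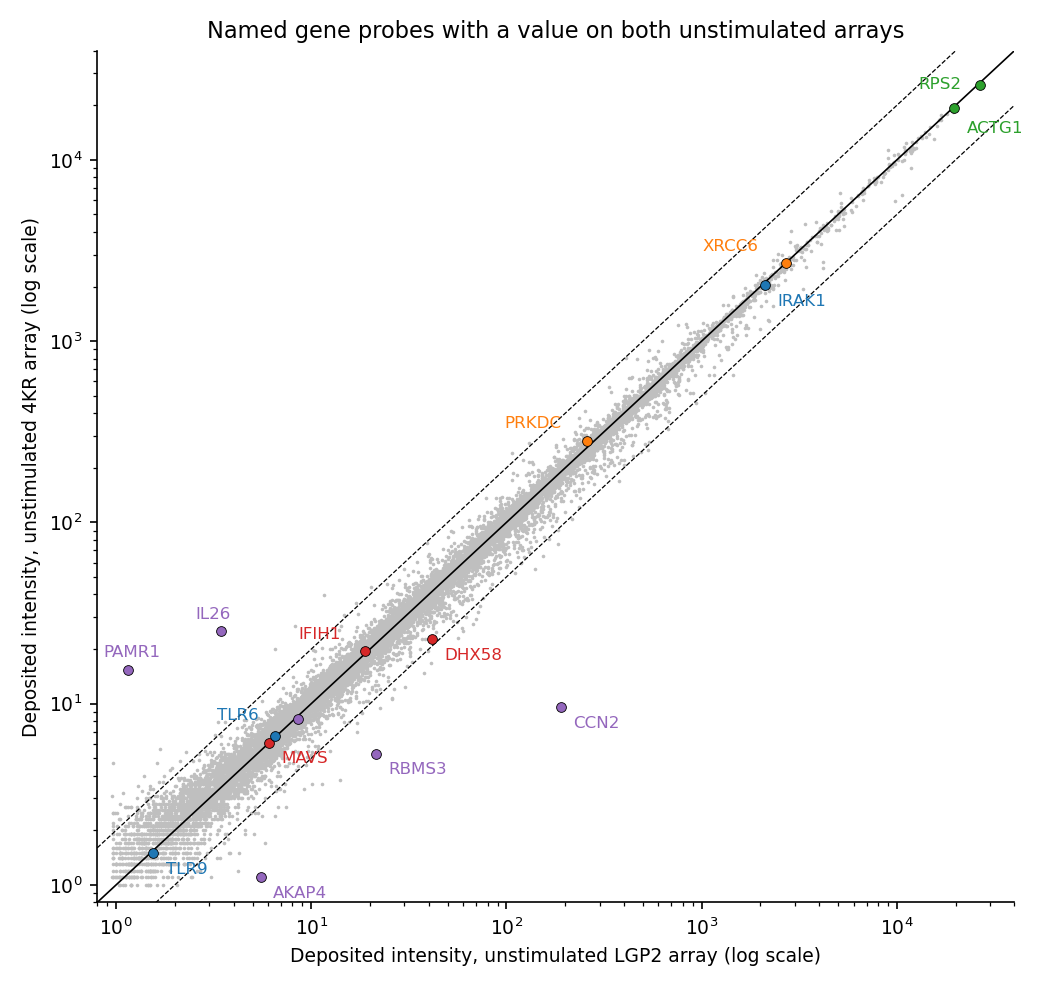
Deposited intensity of each named gene probe on the unstimulated LGP2 array (horizontal, log scale) and the unstimulated 4KR array (vertical, log scale), for the 18218 probes with a value on both. The solid line marks equal values and the dashed lines a 2-fold ratio; most probes hug the solid line over the whole range, RPS2 and ACTG1 lie at the top, and IL26, PAMR1, CCN2, RBMS3 and AKAP4 lie outside the dashed lines.

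The brightest probes on both arrays were those of the protein synthesis machinery. RPS2, a protein of the small ribosomal subunit, led at 26820 on the LGP2 array and 25840 on the 4KR array. Next came RPL6, of the large subunit, with 1 probe at 20114 and 19834 and the other at 19292 and 18370, and ACTG1, cytoplasmic gamma actin, at 19627 and 19259. NPM1, the nucleolar protein nucleophosmin, stood at 16522 and 16529. Among the 50 brightest probes, 32 were named for ribosomal proteins and 10 for ribosomal protein pseudogenes, which can share sequence with the parent genes and are uncertain for that reason. The other 8 were ACTG1, ENO1, GAPDH, HILPDA, LRRC52-AS1, MTCO3P12, NPM1 and UBB. The 100 brightest probes held 30.1% of all named signal on the LGP2 array and 30.3% on the 4KR array, and 96 of them were the same. Ribosomal protein probes held 18.7% and 18.8%, while the probes below the median held 2.78% and 2.85%.

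The genes of growth and energy metabolism filled the top of the scale. A gene in the top 10% has a percentile of at least 89.9, which 10.0% of the 18639 named genes reach by definition. Of 76 measured ribosomal protein genes 64 lay there, as did 57 of 74 of oxidative phosphorylation, 30 of 36 of the proteasome, 32 of 50 translation factors and 18 of 26 housekeeping genes. Median percentiles were 99.7, 96.8, 97.2, 94.7 and 96.1, against 50.1 over all named genes. UQCRH, a subunit of respiratory complex III, stood at 5877 and 5831, PSMB1, a core proteasome subunit, at 3476 and 3509, and EEF1G, a translation elongation factor, at 6699 and 7018.

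The low members of these same groups included forms made mainly in other tissues. COX7A1 and COX6A2, the muscle forms of cytochrome oxidase subunits, stood at 9.77 and 9.70 and at 6.24 and 6.80, and COX8C and COX7B2 had no value. PSMA8, the testis form of a proteasome subunit, stood at 2.65 and 3.0. PSMB9 and PSMB10, the interferon-inducible immunoproteasome subunits, stood at 12.4 and 13.6 and at 1.96 and 2.30. RPL3L, the muscle form of RPL3, stood at 5.55 and 6.20. Other low members were not of that kind: RPS20, a general ribosomal protein, was read by 1 probe at 6.36 and 8.30, and PSMD5, a proteasome assembly chaperone, had no value.

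Classical reference genes were bright, although some had a dim probe beside a bright one. ENO1, the glycolytic enzyme enolase 1, stood at 11889 and 11194, LDHA, lactate dehydrogenase A, at 6642 and 6456, and TUBA1B, an alpha tubulin, at 3851 and 4557. GAPDH, a glycolytic enzyme, had 1 probe at 8979 and 11376 and another at 42.3 and 43.2. UBB, a ubiquitin gene, had probes at 10839 and 9974 and at 6.43 and 6.5, and so had the lowest percentile of the list, 66.4. All 26 housekeeping genes lay above percentile 50. TBP, the TATA-binding protein, was the member that differed most between the arrays, at 120 in LGP2 and 70.8 in 4KR cells.

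The promoters of bright and empty genes differed in their CpG content, a feature the ranking did not use. Promoter windows of 300 bases, from 250 before to 50 after the start, were found in RefSeq (GRCh38.p14) for 14552 of the 18639 genes. The first listed start was used for the 3816 genes with several. The CpG ratio is the observed number of CG pairs over that expected from the C and G content. It had a median of 0.34 in the 1675 genes with no value, 0.70 between percentiles 25 and 50, 0.87 between 90 and 99, and 0.91 in the 113 genes at or above percentile 99. A ratio over 0.6 was found in 32.4% of the genes with no value and in 92.4% of those between percentiles 90 and 99. These are shares across genes, which are not independent replicates. Windows of 250 bases before the start show the contrast, with each CG in capitals. ACTG1 (chr17:81512800-81513049, minus strand, 43 CG) and RPLP1 (chr15:69452568-69452817, plus strand, 20 CG) were among the 20 brightest genes. TLR3 (chr4:186068906-186069155, plus strand, 3 CG) and CXCL10 (chr4:76023498-76023747, minus strand, 3 CG) had no value.
ACTG1: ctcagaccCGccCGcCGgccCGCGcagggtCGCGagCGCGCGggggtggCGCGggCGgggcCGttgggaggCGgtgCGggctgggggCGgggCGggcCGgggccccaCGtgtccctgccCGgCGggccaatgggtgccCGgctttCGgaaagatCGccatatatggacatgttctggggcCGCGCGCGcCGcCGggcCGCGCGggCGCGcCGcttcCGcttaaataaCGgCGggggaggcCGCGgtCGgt
RPLP1: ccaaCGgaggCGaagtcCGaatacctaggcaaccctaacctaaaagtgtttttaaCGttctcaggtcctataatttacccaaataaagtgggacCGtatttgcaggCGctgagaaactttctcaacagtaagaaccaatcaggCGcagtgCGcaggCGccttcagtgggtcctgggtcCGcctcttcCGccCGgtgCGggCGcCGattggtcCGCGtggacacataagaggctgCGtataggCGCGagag
TLR3: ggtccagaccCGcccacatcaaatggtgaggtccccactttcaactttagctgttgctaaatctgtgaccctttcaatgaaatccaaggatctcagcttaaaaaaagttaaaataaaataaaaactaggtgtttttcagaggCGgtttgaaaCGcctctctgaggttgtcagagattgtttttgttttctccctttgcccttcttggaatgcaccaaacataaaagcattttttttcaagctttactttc
CXCL10: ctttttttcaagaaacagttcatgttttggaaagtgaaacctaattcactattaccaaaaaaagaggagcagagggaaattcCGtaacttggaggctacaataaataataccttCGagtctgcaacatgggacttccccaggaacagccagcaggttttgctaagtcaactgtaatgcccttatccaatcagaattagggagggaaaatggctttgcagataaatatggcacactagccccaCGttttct

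Not every bright gene had a CpG-rich window. The first listed start of RPL6 has 2 CG in the 250 bases before it, and its other listed start has 16. TATAAA was found on either strand in 17.9% of windows of genes with no value and 5.59% of those between percentiles 75 and 90. At or above percentile 99 the share was 13.3%, against 9.16% over the 14552 ranked genes with a window. CCGGAAG, a core bound by ETS factors, ran the other way, from 4.18% in genes with no value to 25.7% between percentiles 90 and 99. Over the same 14552 genes it was found in 14.3%. A match is a run of letters, and binding was not measured. Gene spans also differed: the median span in RefSeq was 24254 bases for genes with no value, 31192 between percentiles 50 and 75, and 6774 at or above percentile 99.

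**Figure D2:**
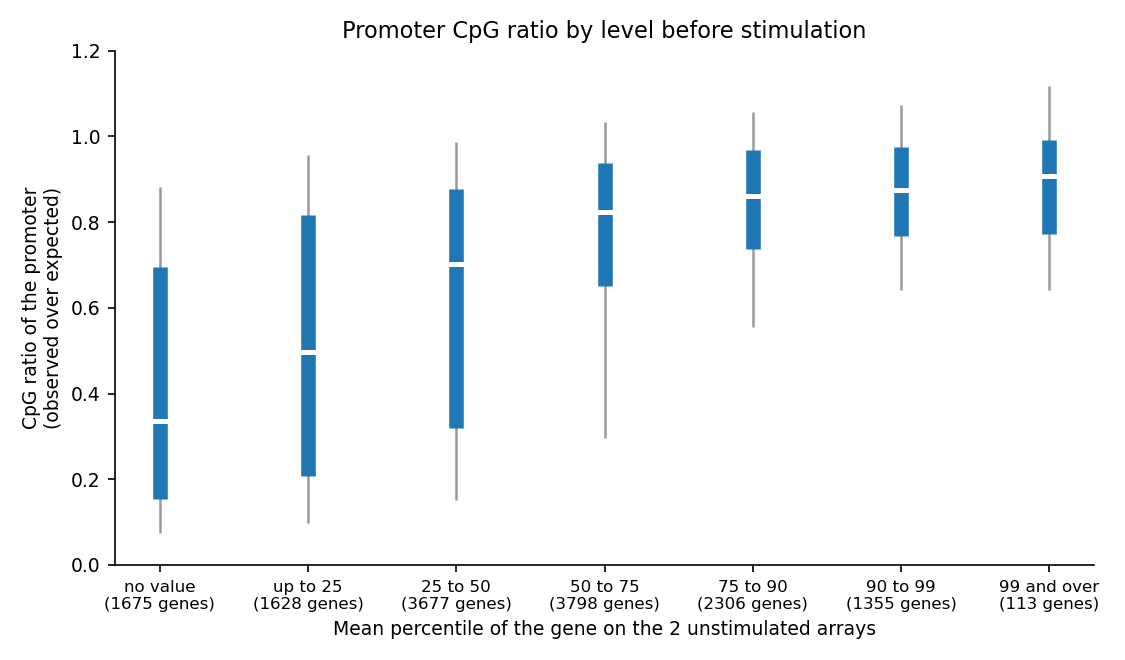
CpG ratio (observed over expected) of the RefSeq promoter window, by the gene's mean percentile on the 2 unstimulated arrays; white marks are medians, thick bars run from the 25th to the 75th percentile of the genes and thin lines the 10th to 90th percentile. The median is 0.34 in genes with no value and 0.91 in genes at or above percentile 99, and the bars become shorter towards the bright end.

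The 3 RIG-I-like receptor genes all had values on both arrays and lay in the middle of the range, at percentiles 48.0 to 60.2. Over all named genes 12.2% had no value on either array. DHX58, which encodes LGP2, stood at 41.4 in LGP2 and 22.8 in 4KR cells. IFIH1, which encodes the RNA sensor MDA5, stood at 18.9 and 19.4. RIGI, which encodes RIG-I, was read by a probe at 13.7 and 13.1 and another at 18.1 and 20.3. None was in the top 10%, although both lines carry a transgene for LGP2 or its 4KR form. The stretch of DHX58 that the probe reads was not given, so the values cannot serve as a check of which transgene a line carried. The DHX58 log2 ratio of 4KR over LGP2 was -0.86, and 99.4% of 2923 probes of like level, from all parts of the array, had a ratio of smaller size. The probe sits in block 24, a printed sector whose median log2 ratio was -0.48, and with that median taken off the DHX58 ratio was -0.38. The probes of that block had a robust SD (from the median absolute deviation) of 0.34, so a ratio of that size is common there. IFIH1 and both RIGI probes had log2 ratios of 0.04, -0.07 and 0.16.

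Promoter windows were listed for IFIH1 and RIGI. The core of the element through which interferon and IRF factors act, GAAA then any 2 bases then GAAA, was searched on both strands, overlapping matches included. It occurs in 3.02% of all 35114 listed windows of 250 bases before the start. It was found 3 times in IFIH1 (chr2:162318685-162318934, minus strand), 2 times each in the interferon-stimulated genes IFIT1 (chr10:89392373-89392622, plus strand) and ISG15 (chr1:1013247-1013496, plus strand), and 0 times in RIGI (chr9:32526197-32526446, minus strand). Matches are in capitals, to set a sensor gene with matches to this core and one without beside 2 interferon-stimulated genes. Other forms of the element were not searched, so 0 matches does not say whether interferon induces RIGI.
IFIH1: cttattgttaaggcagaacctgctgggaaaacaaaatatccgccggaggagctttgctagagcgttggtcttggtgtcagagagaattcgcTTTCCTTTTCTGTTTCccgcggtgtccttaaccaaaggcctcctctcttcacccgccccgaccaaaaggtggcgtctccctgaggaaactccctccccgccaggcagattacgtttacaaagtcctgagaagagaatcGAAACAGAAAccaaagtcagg
IFIT1: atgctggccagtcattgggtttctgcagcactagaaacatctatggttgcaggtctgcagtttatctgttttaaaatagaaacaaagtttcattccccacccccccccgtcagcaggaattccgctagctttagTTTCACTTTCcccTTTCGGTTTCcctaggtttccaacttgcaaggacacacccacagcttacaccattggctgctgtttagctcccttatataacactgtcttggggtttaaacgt
ISG15: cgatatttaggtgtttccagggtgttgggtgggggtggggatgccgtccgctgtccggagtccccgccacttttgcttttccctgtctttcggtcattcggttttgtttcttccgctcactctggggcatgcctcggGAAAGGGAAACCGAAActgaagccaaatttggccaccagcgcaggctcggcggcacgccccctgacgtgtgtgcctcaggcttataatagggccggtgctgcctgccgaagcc
RIGI: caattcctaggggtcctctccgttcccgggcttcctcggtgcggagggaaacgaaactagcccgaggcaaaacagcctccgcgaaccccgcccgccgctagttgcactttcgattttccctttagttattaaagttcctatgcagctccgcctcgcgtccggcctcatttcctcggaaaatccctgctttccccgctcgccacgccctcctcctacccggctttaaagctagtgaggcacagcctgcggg

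Genes of the MAVS pathway all had values, with the adaptor itself at the lowest gene percentile. All 20 measured members had values on both arrays, with a median percentile of 65.1. For comparison, 12.2% of all named genes had no value on either array. PCBP2, an RNA-binding protein that promotes MAVS turnover, stood at 766 and 609, and TOMM70, the mitochondrial import receptor that recruits TBK1, at 192 and 181. CHUK, the kinase IKK alpha, stood at 163 and 159, and FADD, a death domain adaptor, at 117 and 101. TBK1, the kinase that phosphorylates IRF3, had probes at 25.5 and 28.0 and at 178 and 189. TRAF3, TRAF6 and TRAF5, ubiquitin ligases that link MAVS to the kinases, stood at 60.1 and 62.9, at 28.6 and 28.8 and at 42.3 and 44.3. RNF135 and TRIM25, ubiquitin ligases linked to RIG-I activation, stood at 41.2 and 42.4 and at 35.2 and 34.7. AZI2 and TANK, adaptors of TBK1, stood at 88.2 and 80.2 and, with 2 probes, at 41.1 and 48.7 and at 31.2 and 32.5. IKBKE, IKBKB and IKBKG, of the IKK family, stood at 35.1 and 36.2, at 30.0 and 33.7 and at 11.4 and 11.4. TRADD, a death domain adaptor, stood at 56.1 and 45.4, and NLRX1, a mitochondrial regulator, at 21.4 and 21.6. TBKBP1, another TBK1 adaptor, had a probe at 36.9 and 37.8 and one at 2.5 and 3.0, dimmer than that of MAVS. MAVS was read by 1 probe at 6.05 and 6.10, percentile 32.0. ITCH, a ligase that degrades MAVS, was the only member past 1.5-fold between the arrays, at 24.6 and 13.4, and its probe also lies in block 24. TRAF2 and RIPK1, of the same list, were not analysed here.

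The IRF genes downstream lay lower, and the NF-kB genes close to the MAVS pathway. All 8 measured IRF genes had values on both arrays, with a median percentile of 40.7. With 8 genes, 0 without a value is near the 12.2% of all named genes. IRF7, the interferon-inducible activator of interferon alpha genes, was the highest at 51.3 and 51.5. IRF3, the factor that MAVS signalling activates first, stood at 17.5 and 18.1. IRF9, the DNA-binding part of the complex that interferon receptors activate, was the lowest at 2.84 and 3.70. IRF4, IRF5 and IRF8, mostly known from immune cells, stood between 7.41 and 13.0. The 10 NF-kB genes had a median percentile of 60.0, with 6 above 50. Of these genes, NFKBIA, the inhibitor that holds NF-kB in the cytoplasm, stood at 196 and 141, NFKB1, the p105 precursor, at 83.7 and 107, and RELA, the p65 subunit, at 9.66 and 8.60.

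**Figure D3:**
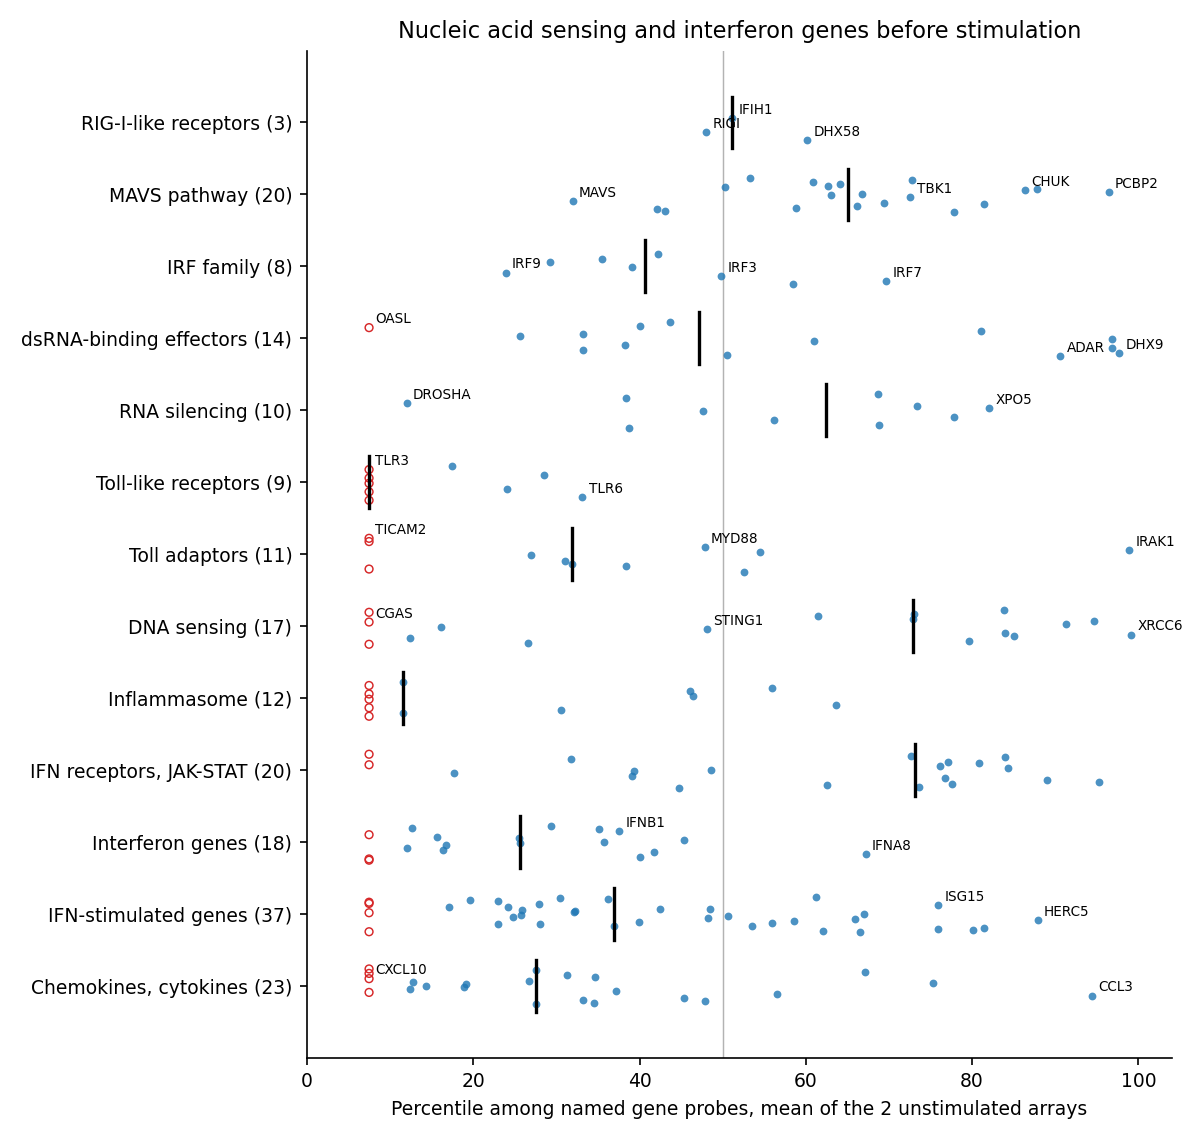
Percentile (mean of the 2 unstimulated arrays, 0 dimmest to 100 brightest) of every measured gene of each list of sensing and interferon genes, with the number of genes in brackets. Filled points had a value on at least 1 array, open red points on neither, and vertical bars are medians: the MAVS pathway median is 65.1 and that of the Toll-like receptors 7.48.

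Other proteins that bind double-stranded RNA split into bright and dim sets. DHX9, an RNA helicase, stood at 1036 and 995.6, DDX3X and DHX15, further helicases, at 763 and 732 and at 780 and 718, and ADAR, which edits adenosine to inosine, at 222 and 284. These 4 were the members in the top 10%, of 14 measured. In the oligoadenylate synthetase family, OAS3 had probes at 9.81 and 13.7 and at 3.19 and 3.40. OAS2 stood at 3.07 and 4.60, and OASL had no value. OAS1 ranked higher, at percentile 43.7, against 33.2 for OAS3 and 25.7 for OAS2. EIF2AK2, the kinase PKR that halts translation, stood at 115 and 97.4. Of 10 RNA silencing genes 9 had values on both arrays and 0 had none on either, near the 12.2% of all named genes. XPO5, which exports microRNA precursors, was the highest at 116 and 111, DICER1, which cuts them, stood at 49.3 and 47.8, and TARBP2, a partner of Dicer, at 47.9 and 48.2. DROSHA, the nuclear microRNA-processing enzyme, had no value on the LGP2 array and 1.40 on the 4KR array.

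Toll-like receptors were low or without a value. TLR1, TLR2, TLR3, TLR5 and TLR10 had no value on either array, which is 5 of the 9 measured, against 12.2% of all named genes. TLR6 stood at 6.55 and 6.6, TLR7, a sensor of single-stranded RNA, at 4.31 and 5.20, and TLR9, a sensor of CpG DNA, at 1.55 and 1.5. TLR8 had 1 probe without a value and 1 at 8.38 and 13.1. None lay above percentile 50. TLR4 was not analysed here.

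The Toll adaptors were mixed. IRAK1, a kinase of the MyD88 complex, stood at 2107 and 2046, percentile 98.9. MYD88, the main adaptor, had probes at 44.8 and 47.2 and at 5.10 and 4.00. TIRAP, which brings MyD88 to the membrane, stood at 24.0 and 21.9. TICAM1, the adaptor TRIF that serves TLR3, had a probe at 16.3 and 19.5 and another at 1.35 in LGP2 cells with no value in 4KR cells. TICAM2, IRAK3, an inhibitory IRAK, and LY96, the TLR4 co-receptor MD-2, had no value. They were 3 of 11 measured (27.3%, against 12.2% of all named genes). A kinase of the pathway was thus among the bright genes while most receptors were at the cutoff.

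In the DNA-sensing list the brightest members were the 3 genes of the DNA-dependent protein kinase, which joins broken DNA ends. XRCC6 and XRCC5, the Ku70 and Ku80 subunits that bind broken DNA ends, stood at 2704 and 2697 and at 424 and 496, and PRKDC, the DNA-dependent protein kinase, at 259 and 281. DDX41, a helicase that also senses DNA, stood at 141 and 147. POLR3A, POLR3B and POLR3C, subunits of RNA polymerase III, stood at 59.4 and 64.5, at 138 and 126 and at 140 and 121. IFI16, a nuclear DNA sensor, had probes at 83.7 and 113 and at 40.8 and 43.6. CGAS, AIM2 and ZBP1, cytoplasmic DNA sensors, had no value from any of their probes. These were 3 of 17 members, a share of 17.6% that is near the 12.2% of all named genes. STING1, the adaptor of cGAS, stood at 14.7 and 17.8. TREX1, the exonuclease that removes cytoplasmic DNA, stood at 5.12 and 3.30. The median percentile of the list was 72.9.

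Inflammasome genes were among the dimmest lists, with 5 of 12 (41.7%) without a value, against 12.2% of all named genes. CASP1, CASP4 and CASP5, the inflammatory caspases, and GSDMD, the pore-forming gasdermin, were among those without one. The highest was NLRC4, a sensor of bacterial flagellin, at 36.8 and 36.4, followed by PYCARD, the adaptor ASC, at 24.1 and 25.3.

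Interferon genes themselves were dim but not all empty. IFNB1, which encodes interferon beta, stood at 7.82 and 9.60. Of 18 measured interferon genes 13 had values on both arrays and 3 on neither. That share of 16.7% without a value is near the 12.2% of all named genes. The median percentile was 25.6, against 50.1 over all named genes. IFNA8 was the brightest at 45.0 and 43.8, while IFNA1, IFNA21 and IFNG had no value. The alpha interferon genes are close copies of each other, so their probes may share signal. Receptors and kinases for interferon were further up: JAK1 and TYK2, the kinases bound to the receptors, stood at 107 and 100.5 and at 84.0 and 81.2. IFNGR1, a chain of the interferon gamma receptor, stood at 210 and 213. IFNAR1, a chain of the type I receptor, stood at 12.1 and 14.8. JAK3 and STAT4, known mainly from lymphocytes, had no value. They were 2 of 20 measured receptor and JAK-STAT genes, a share of 10% that is near the 12.2% of all named genes. SOCS1 and SOCS3, inhibitors of cytokine signalling, stood at 5.99 and 6.0 and at 1.39 and 1.80.

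Interferon-stimulated genes ranged from dim to moderately bright before stimulation. Of 37 measured, 33 had values on both arrays and 4 on neither, a share of 10.8% that is near the 12.2% of all named genes. None was in the top 10%, and the median percentile was 36.9. HERC5, the ligase that attaches ISG15, was the highest at 176 and 198. IFITM1, which blocks virus entry, stood at 101 and 116, PLSCR1, a phospholipid scramblase, at 88.8 and 110, and ISG15, the ubiquitin-like modifier, at 70.3 and 78.1. IFI44, SAMD9L, TRIM22 and PARP14 had no value. IFIT1, an RNA-binding effector, stood at 17.2 in LGP2 and 7.80 in 4KR cells and was the only member past 2-fold between the arrays; its probe lies in block 24. The same element core was found in 23 of the 32 listed promoter windows of 300 bases of this list. The share was 3.57% over all listed windows of that length and 3.09% over those of the ranked genes. Other lists held it as well: 7 of 13 windows of class I antigen presentation, 4 of 11 of double-stranded RNA effectors and 3 of 12 of DNA sensing. It was found in 0 of 24 windows of the housekeeping list and 0 of 17 of the MAVS pathway. With so few windows, a count of 0 is near the share over all windows.

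Cytokine genes had a median percentile of 27.6. CXCL10, CXCL11, CCL5 and TNF, chemokines and a cytokine that infection induces, had no value. These were 4 of 23 measured, a share of 17.4% that is near the 12.2% of all named genes. CCL3, a macrophage chemokine, was an exception at 423 and 455, percentile 94.4. VEGFA, the vascular growth factor, stood at 69.6 and 73.2. Class I antigen presentation had bright and dim parts. B2M, the invariant light chain, stood at 1886 and 2031, CANX, the chaperone calnexin, at 2141 and 2191, and HLA-F, a non-classical heavy chain, at 785 and 889. NLRC5, the class I transactivator, stood at 2.77 and 3.30. In class II, 3 of 10 genes (30%, against 12.2% of all named genes) had no value, among them CIITA, the class II transactivator. CD74, the invariant chain, stood at 1.11 and 1.0.

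Proliferation genes were nearly all bright. Of 32 measured cell cycle genes 24 lay in the top 10%, with a median percentile of 95.4. PCNA, the replication clamp, stood at 3230 and 3272, CDK1, the mitotic kinase, at 1318 and 1306, and RRM1, a subunit of ribonucleotide reductase, at 1395 and 1350. CCNB1, cyclin B1, had probes at 1340 and 932.5 and at 1197 and 1120. MKI67, the gene of the proliferation antigen Ki-67, was the exception at 1.87 in LGP2 cells and no value in 4KR cells, with 1 probe. PLK1, a mitotic kinase, stood at 24.6 and 14.

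The lineage lists did not mark the cells as kidney tubule or glomerulus. Of 19 measured kidney genes none was in the top 10%, and the median percentile was 33.5. GATA3, PAX8 and SIX2, transcription factors of the developing kidney, were the highest at 34.5 and 33.5, at 28.8 and 31.5 and at 19.4 and 19.4. SLC12A3 and SLC34A1, transporters of the mature tubule, had no value. They were 2 of 19, a share of 10.5% that is near the 12.2% of all named genes. LRP2, the endocytic receptor megalin of the proximal tubule, stood at 3.42 and 4.30, and CDH16, a kidney cadherin, had a probe at 1.24 and 1.5 and another without a value. GATA3, PAX8 and SIX2 were the 3 kidney genes above percentile 50.

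The neuronal and adrenal lists had median percentiles of 39.6 and 29.7, against 50.1 over all named genes. UCHL1, a ubiquitin hydrolase abundant in neurons, had probes at 3050 and 3291 and at 875 and 912. STMN1, a microtubule regulator that dividing cells also make, stood at 517 and 519, and NEFL, the light neurofilament, at 313 and 321. These 3 were the members in the top 10% of 20, a share of 15% that is near the 10.0% of all named genes. DCX and ELAVL4, markers of young and mature neurons, had no value. They were 2 of 20, a share of 10% that is near the 12.2% of all named genes. PHOX2A, a transcription factor of noradrenergic cells, stood at 149 and 169, the highest of 16 adrenal genes, of which 0 were in the top 10%. DBH and DDC, enzymes of catecholamine synthesis, and CYP11B1 and CYP21A2, enzymes of steroid synthesis, had no value. They were 4 of 16 adrenal genes (25%, against 12.2% of all named genes).

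Epithelial genes all had values and mesenchymal ones split. With 16 epithelial genes, 0 without a value is near the 12.2% of all named genes. CDH1, E-cadherin, stood at 154 and 169, and CLDN3, a tight junction claudin, at 99.4 and 96.8, the highest of 16 epithelial genes with a median percentile of 48.1, of which 8 lay above 50. At the low end were GRHL2 and ESRP1, regulators of the epithelial state, at 1.5 and 2.5 and at 1.47 and 2.7, KRT19, a keratin, at 2.39 and 3.8, and CLDN4, a claudin, with a probe at 5.45 and 5.6 and another without a value. Of 19 mesenchymal genes 6 (31.6%, against 12.2% of all named genes) had no value, among them COL1A1, COL1A2, LUM and POSTN, genes of fibroblast matrix. CDH2, N-cadherin, stood at 91.1 and 56.0, and FN1, fibronectin, at 56.8 and 59.5. SPRR1A, KRT14 and KRT5, genes of squamous epithelium, stood at 171 and 161, at 156 and 153 and at 53.5 and 52.1, while LORICRIN, FLG and SPRR1B had no value. Those without a value were 3 of 12 keratinocyte genes (25%, against 12.2% of all named genes).

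HOX genes, which record position along the body axis, had their highest median percentile in the B cluster, with 0 of its 10 genes in the top 10%. HOXB2 had probes at 256 and 255 and at 159 and 152, HOXB6 stood at 157 and 158, HOXB7 at 154 and 158 and HOXB3 at 121 and 135. HOXB8 and HOXB13 were the lowest of the cluster, at 8.30 and 7.70 and at 11.7 and 13.5. The 10 HOXB genes had a median percentile of 71.1, against 43.2 for 9 HOXC and 47.6 for 9 HOXD genes. HOXC9 had the highest percentile of all the HOX genes, 89.1, and stood at 208 and 214. HOXC6 stood at 102 and 105, and HOXC8, which lies between HOXC6 and HOXC9 in the cluster, had no value. HOXD13, the last gene of its cluster, had probes at 60.9 and 66.1 and at 112 and 118. Of the HOXA genes only HOXA2 was measured, at 7.30 and 4.50. Among 12 pluripotency genes, DPPA4, LIN28B and SOX2 were the highest. DPPA4, a nuclear factor of embryonic stem cells, stood at 176 and 185, LIN28B, which blocks let-7 maturation, had probes at 66.7 and 63.8 and at 87.7 and 81.7, and SOX2, a stem cell transcription factor, stood at 42.4 and 46.2. LIN28A and ZFP42 had no value. They were 2 of 12, a share of 16.7% that is near the 12.2% of all named genes.

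Markers of blood, liver, endothelium and germ cells had median percentiles between 9.51 and 23.9, with some members well above. The shares without a value were 36.8%, 43.8%, 25% and 50% in that order, against 12.2% of all named genes. Of 19 haematopoietic genes 7 had no value, including PTPRC, the pan-leukocyte antigen CD45, and CD3G, CD4 and CD8A of T cells. CD79A, a chain of the B-cell receptor, stood out at 120 and 122, while its partner CD79B stood at 9.16 and 10.7. Of 16 hepatocyte genes 7 had no value, including ALB, albumin, and APOB, an apolipoprotein, whereas FGA, a fibrinogen chain, stood at 38.8 and 42.2. Of 12 endothelial genes 3 had none, including PECAM1 and TEK, while 4 lay above percentile 50. These were ESAM, an adhesion molecule, at 58.2 and 58.0, KDR, a receptor for VEGF, at 28.2 and 29.6, EGFL7, a secreted vessel factor, at 21.2 and 22.3, and CLDN5, a claudin of vessels, at 17.7 and 18.4. Of 14 germline genes 7 had no value and none lay above percentile 50. Not all lists of other tissues were this low. Photoreceptor genes had a median percentile of 42.6, with 5 of 10 above percentile 50, and keratinocyte genes 43.4, with 6 of 12. Cancer-testis genes had a median of 35.2 and muscle genes 26.5, against 33.5 for the kidney list. The list medians therefore do not identify the tissue of the cells.

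Olfactory receptors, taste receptors and defensins were emptier than the 12.2% of all named genes, and keratin-associated genes were a mixed family. Of 357 olfactory receptor genes 132 (37.0%) had no value and the median percentile was 17.4. OR1J1 was the brightest at 751 and 770, percentile 96.8, the only one in the top 10%, followed by OR2T11 at 153 and 163 and OR10H4 at 118 and 125. Of 28 defensins, antimicrobial peptides, 16 had no value, and the highest, DEFB124, stood at 12.3 and 12.6. Of 23 bitter and sweet taste receptors 9 had no value. Of 64 keratin-associated protein genes, of hair, 17 had no value, 21 lay above percentile 50 and the median was 33.8. KRTAP10-10 stood at 464 and 460 and KRTAP12-3 at 195.9 and 196.5. Each of these exceptions rests on 1 probe read alike on both arrays, and whether the signal came from the named gene was not tested.

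**Figure D4:**
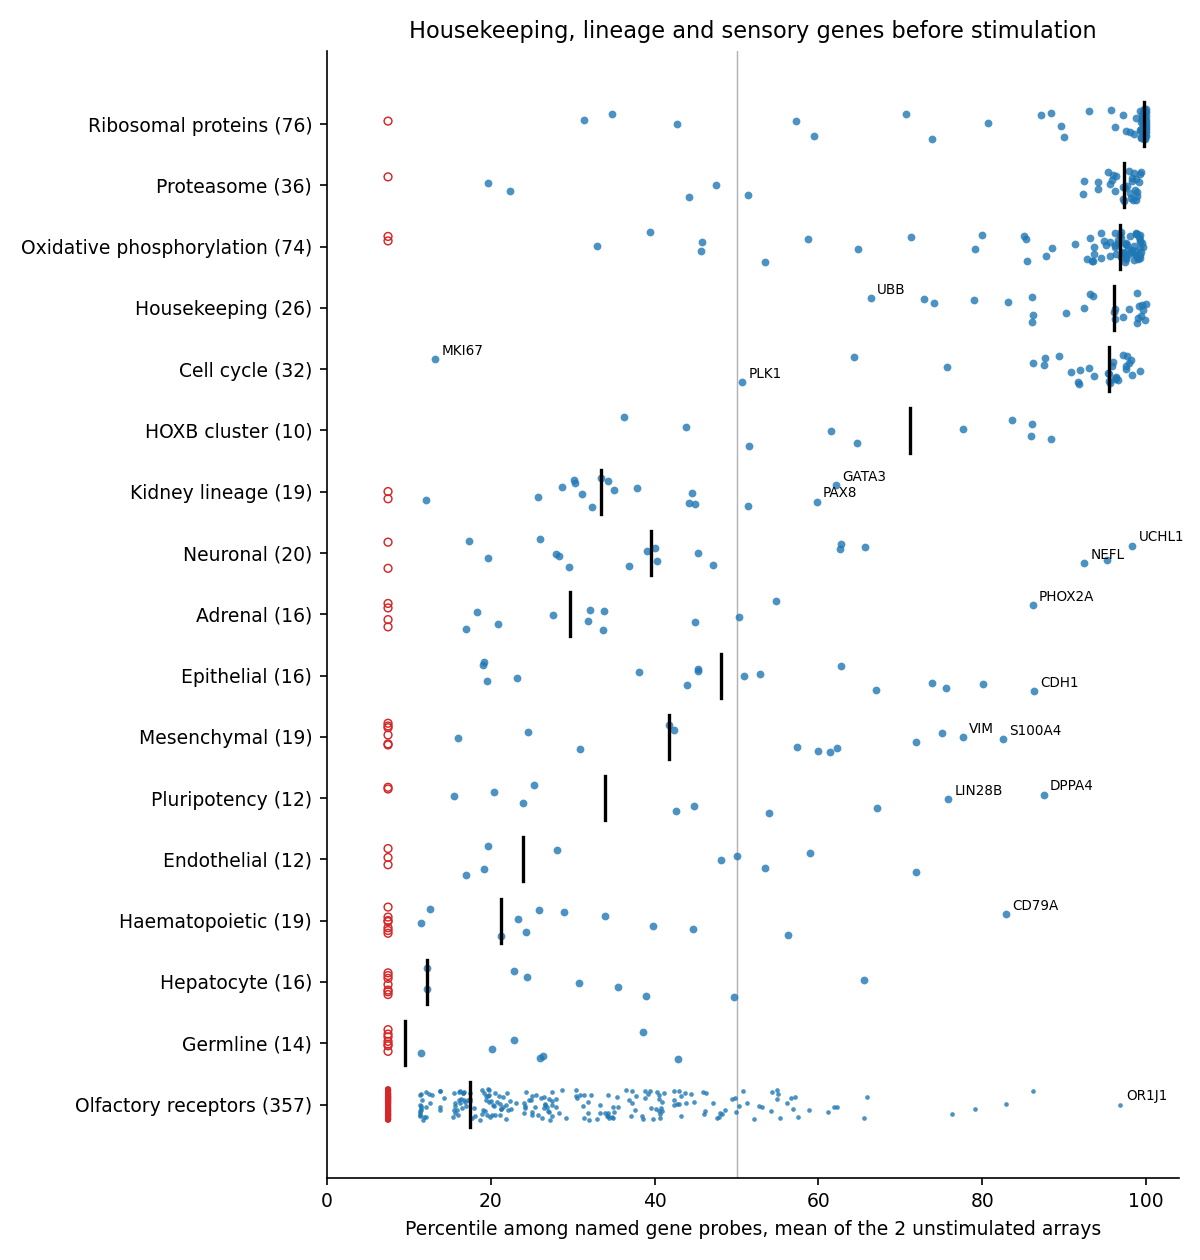
Percentile (mean of the 2 unstimulated arrays, 0 dimmest to 100 brightest) of every measured gene of the housekeeping, lineage and sensory lists, with the number of genes in brackets. Filled points had a value on at least 1 array, open red points on neither, and vertical bars are medians: ribosomal proteins sit at 99.7 and olfactory receptors at 17.4 with OR1J1 far above the rest.

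The 2 arrays agreed closely over most of the range. Over the 18218 probes with values on both, Pearson's r of the log2 intensities was 0.995 and Spearman's rho 0.996 across probes, which are not independent replicates and share their probe sequences. The ratio lay within 1.2-fold for 82.3% of probes, within 1.5-fold for 96.0% and within 2-fold for 99.3%. The median log2 ratio of 4KR over LGP2 was 0.02, with a robust SD (from the median absolute deviation) of 0.14. Of the 1000 brightest probes on each array, 947 were shared. The lines at 12 h had a Pearson correlation of 0.994 and a robust SD of 0.18, while the 12 h array against the 0 h array had 0.982 and 0.36 in LGP2 cells and 0.984 and 0.34 in 4KR cells. The unstimulated pair was thus closer in this spread than either line was to itself at 12 h.

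The spread grew towards the cutoff. The robust SD of the log2 ratio was 0.45 for the 711 probes with a mean intensity under 2, 0.29 between 2 and 5, 0.19 between 5 and 10, and between 0.08 and 0.14 in all classes above 10. Of the probes under 2, 4.08% were past a 2-fold ratio, and of those at 1000 or more 0 of 518 were.

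The spread also followed the position on the array. In every other one of the 24 blocks the median log2 ratio lay between -0.18 and 0.17, while block 24 had a median of -0.48. That block held 55 of the 128 probes past 2-fold, against 7 in the next highest and a median of 2.5 over the blocks. Of its 55, 53 were lower in 4KR cells. For a single probe in that block, position and line cannot be told apart.

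**Figure D5:**
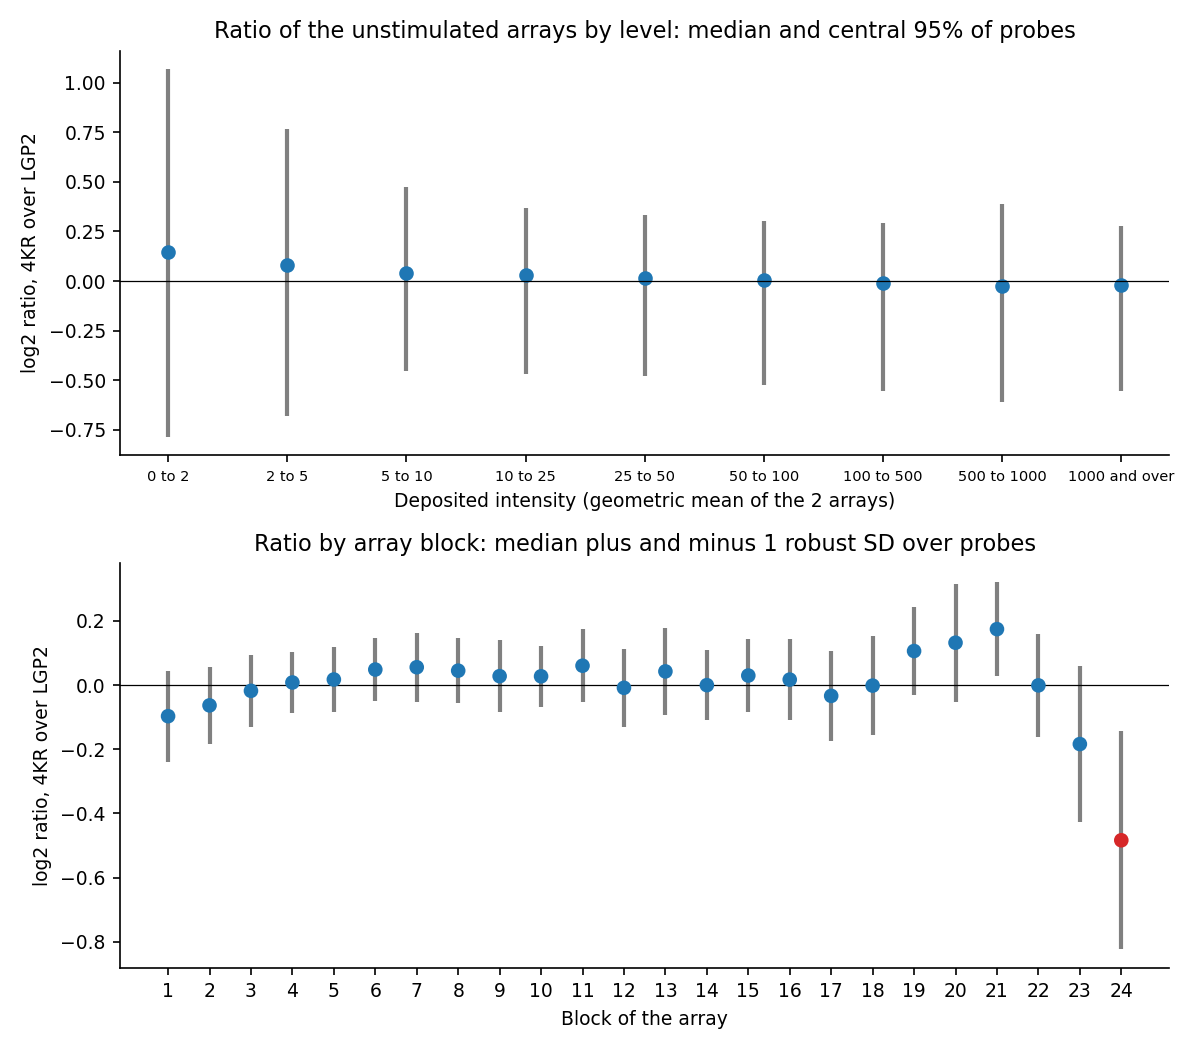
Log2 ratio of the unstimulated 4KR array over the unstimulated LGP2 array, above by mean deposited intensity (points are medians, bars hold the central 95% of probes) and below by array block (points are medians, bars are plus and minus 1 robust SD over probes). The bars are widest under an intensity of 2, and block 24, in red, lies at a median of -0.48.

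Few genes were past 2-fold between the unstimulated lines. Of 15977 genes with a ratio, 44 (0.275%) were past 2-fold on the higher side in 4KR cells and 52 (0.325%) on the lower side. With a correction for position on the array the counts were 39 and 16, so the balance turned, and with normexp background correction and quantile normalization they were 1 and 2. Of the 44, 35 had an intensity under 10 on the brighter array. Of the 52, 37 had a probe in block 24. No member of the RIG-I-like receptor, MAVS pathway, IRF, NF-kB, Toll-like receptor, DNA-sensing or RNA silencing lists was among them. These lists are small, so a count of 0 is near the shares of 0.275% and 0.325% over all genes.

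The largest ratios mostly came from dim probes. PAMR1, a secreted peptidase-like protein, stood at 1.15 in LGP2 and 15.4 in 4KR cells, a log2 ratio of 3.74. IL26, a cytokine of T cells, stood at 3.43 and 25.1, a ratio of 2.87. RAPGEF5, an exchange factor for Rap proteins, stood at 0.967 and 4.70, a ratio of 2.28. CTSZ, the lysosomal protease cathepsin Z, stood at 11.6 and 39.7, a ratio of 1.77. On the lower side, AKAP4, a sperm tail anchoring protein, stood at 5.50 and 1.10, a ratio of -2.32. RBMS3, an RNA-binding protein, stood at 21.4 and 5.30, a ratio of -2.01. CCN2, the matricellular protein CTGF, had a ratio of -2.18, from a probe in block 24 at 189 and 9.60 and a probe in block 3 at 8.55 and 8.20. The 2 CCN2 probes therefore do not give the same answer. The other genes among the 10 largest on each side were CCER2, TPPP, GABRP, MAPK8, CD72 and CRYM, with ratios from 1.73 down to 1.53, and ZNF462, CABIN1, RGS1, RAB39A, FOXI1, LOC105371446 and CALHM6, from -1.89 to -1.45. The dimmer values of PAMR1, RAPGEF5 and AKAP4 lay under the 95th percentile of spots that hold no probe. That percentile was 1.62 on the LGP2 array and 1.26 on the 4KR array. With normexp their ratios were 0.60, 0.17 and -0.22. Those of IL26, CTSZ, RBMS3 and CCN2 were 0.79, 0.82, -0.61 and -1.30.

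The 12 h arrays read other RNA of the same 2 lines, which did not choose these genes. At 12 h, of 16865 genes with a ratio, 0.231% were past 2-fold on the higher side and 0.617% on the lower side. Of the 44 genes higher at 0 h, 43 had values at 12 h, and 0 of them were 2-fold higher there, 9 were higher at all and 2, ALPK2 and YAP1, were 2-fold lower. Of the 52 lower at 0 h, 51 had values at 12 h, 36 were lower and 4 were 2-fold lower. Over all 19304 probes with values on both 12 h arrays, 5113 were higher and 13835 lower in 4KR cells, so the counts of 9 and 36 are near the shares over all probes. Those 4 were named after their values were seen: CCN2, RBMS3, ANKRD1 and COL4A6. RBMS3 stood at 19.4 in LGP2 and 5.70 in 4KR cells at 12 h, and the block 24 probe of CCN2 at 152 and 24.4. ANKRD1, a cardiac ankyrin repeat protein, stood at 9.15 and 3.40 at 0 h and at 11.8 and 3.70 at 12 h. COL4A6, a basement membrane collagen chain, stood at 5.11 and 1.90 and then at 2.90 and 1.10, from a probe in block 24. The 12 h RNA also differs by stimulation, and the part of stimulation in these shifts was not tested.

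Genes without a value at 0 h mostly stayed low at 12 h. Of the 3004 probes without a value on both unstimulated arrays, 1727 had none on either 12 h array and 678 had one on both. At 12 h, 5 reached an intensity of 25 on both: CXCL10 at 940 in LGP2 and 919 in 4KR cells, OASL at 692 and 573, CCL5 at 407.5 and 393, IFI44 at 159 and 138, and CXCL11 at 127 and 120.5. CXCL10, CCL5 and CXCL11 are chemokines, IFI44 is an interferon-stimulated gene, and OASL belongs to the oligoadenylate synthetase family. TLR3, CGAS, AIM2 and ZBP1 were not among the 5.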

How the data were processed

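The members, the gene lists and the tests were chosen with earlier results of these data known. Per the file headers, the scanner output lists 1 median intensity per spot at 635 nm, in scanner units, with least-squares lines that relate 3 gains. The intensity table deposited by the authors equals, to within 0.053, the spot's median less the trimmed blank mean (middle 90% of blank spots), times a factor that sets the median of the given values to 25. The sources used here do not state the cutoff rule. Per the labels' protocols, amino allyl aRNA was amplified, coupled to Cy5 and hybridised.

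Probe names came from GEO's platform annotation: 21707 probes have 1 gene, 0 have several and 2753 have no name here. Of the named probes, 21675 matched RefSeq's gene table (GRCh38.p14), which changed 0 symbols, and 18639 genes resulted. Percentiles, ratios and counts were computed in Python 3.11.15 with pandas 2.3.3, and a count is past 2-fold on the mean log2 ratio over a gene's probes with a value on both arrays. As an alternative, normexp with an offset of 50 (limma 3.58.1, R 4.3.3) was run on the spot signals before quantile normalization over the 4 arrays. The code for calls, ranks and motif search was run on simulated data with known answers. The simulated noise was the same at every intensity and had no block effect. It therefore does not show how often dim probes, or probes in a shifted block, are called wrongly.

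The genes named were drawn from a rule's set, not all of it: the 20 with the highest percentile, all members of the sensing lists, the 4 highest and 4 lowest of every other list, sensory or germline genes in the top 25%, and the 10 largest ratios each way. EIF2AK2, OAS1, IFNB1, IFNAR1, JAK1, TYK2, IFIT1, GAPDH, KRT18, the other 12 h examples and those among the 50 brightest probes were named after their values were seen. There are 4 groups of 1 array, so the number of arrays limits the precision, and no p-value was computed.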

Additional observations from a re-analysis of the deposited data

Results flagged for a closer look

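Spots that the array's map lists as holding no probe carried signal on both unstimulated arrays. Of 2412 such spots, 638 (26.5%) passed the cutoff on the LGP2 array and 217 (9.0%) on the 4KR array, and on the 12 h arrays 849 and 1251 did. The highest stood at 29.3 on the LGP2 array and 11.8 on the 4KR array, and 4 and 3 spots reached 5. Of 96 negative control spots, 1 and 0 passed at 0 h. Values given to named probes below the 99th percentile of these spots, which was 2.47 and 2.13, numbered 1334 and 1041. TLR9, SOCS3, CD74 and the CDH16 probe with a value are named above with values in that range on both arrays. Among those in that range on 1 array were PAMR1 and RAPGEF5 on the LGP2 array and AKAP4 on the 4KR array.

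Gene probes without a name here also carried signal. Of 2753, 2261 (82.1%) had a value on both unstimulated arrays, near the 83.9% of named probes, with medians of 14.3 and 14.6. Of these, 114 stood at 1000 or more on both arrays, and the brightest at 19375 and 19876. They are left out of every rank and list.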

How the results depend on the processing

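Alternatives with the mean plus 2 or 3 SD of all blank spots kept 17949 and 17378 probes on both arrays, and the 99th percentile of spots without a probe, chosen after seeing the data, kept 16994. The Pearson correlation was 0.997 with normexp, 0.995 with blank subtraction and quantile, 0.993 among probes above the median, 0.996 with the position correction and 0.996 without blocks 20, 21 and 24, chosen after seeing the data. The robust SD was 0.0575, 0.14, 0.11, 0.13 and 0.13 in that order. Genes past 2-fold were 1 higher and 2 lower with normexp, whose offset of 50 shrinks dim ratios, 8 and 23 at an intensity of at least 25, 39 and 16 with the position correction, 40 and 15 without the 3 blocks, and 35 and 62 with blank subtraction. Those also counted as reported were 1, 7, 38, 34 and 34 of the higher and 2, 21, 16, 15 and 50 of the lower genes.

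Median percentiles moved as follows. For the RIG-I-like receptors the rank among all gene probes gave 52.6. For the MAVS pathway the brightest probe gave 66.4, the dimmest 62.9 and all gene probes 66.3. For the Toll-like receptors normexp gave 13.97, and dropping values under the 99th percentile of spots without a probe gave 10.2. For interferon-stimulated genes the brightest probe gave 44.3, the dimmest 35.6 and all gene probes 38.1. Housekeeping was at 97.7 by the brightest probe. Olfactory receptors were at 17.7 by the brightest probe, 16.5 by the dimmest, 17.8 among all gene probes and 10.2 without values under that percentile. The median CpG ratio of genes with no value was 0.33 with 1-probe genes and 0.34 with protein-coding genes, and that between percentiles 90 and 99 was 0.88 and 0.87. Of 47 lists, 40 to 47 stayed within 5 percentile points under each of the 5 alternatives, and all 20 of the brightest genes remained with normexp. Causes of these shifts were not tested. No paired analysis was possible because each group has 1 array and groups share only 1 replicate number.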
